A study of Mus musculus with 23 samples.

Results

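The ependymal motile cilia genes described here are 10 genes, Foxj1, Tekt1, Rsph1, Stoml3, Ccdc153, Tmem212, Spag6, Hydin, Dnali1 and Spag16, of the 31829 distinct gene names on the array. They were selected from the measured values of these same arrays, with the differences between the diets known, and are read by the 14 probes that carry their names. The brains came from C57BL/6J males that had developed from embryos obtained by in vitro fertilization and carried by ICR mothers. From 1 month before the transfer until delivery, the mothers ate a control diet (CD, 20% casein and 0.02% folic acid by weight), a protein-restricted diet (PR, 5% casein and 0.02% folic acid) or the protein-restricted diet with more folic acid (FA, 5% casein and 0.1% folic acid). Pups were raised by ICR foster mothers, whose diet is described in more than 1 way, and ate the CD diet after weaning. Each sample held the cerebrum and cerebellum of a male of 19 weeks that had been used in behavioral tests, with 4 mice per diet and 1 array per mouse. Because the arrays of each diet were hybridized on a slide of their own, an effect of the slide and an effect of the diet cannot be told apart here. The slides differed in background as well, with 27068 to 28458 spots well above background in CD, 31266 to 33478 in PR and 30408 to 31672 in FA, and a net signal of the negative controls of 28.1 to 34.8, 42.7 to 51.2 and 39.3 to 47.6. Its part in the differences from CD was not tested.

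Ependymal cells line the brain ventricles and carry tufts of motile cilia that move the cerebrospinal fluid. The axoneme of such a cilium is built of outer microtubules joined by inner proteins, with dynein arms as motors, radial spokes, and a central pair of microtubules with its projections. Foxj1 is the transcription factor that switches on the program for motile cilia.

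Most of these genes had lower levels in the PR and FA brains than in the CD brains. The median log2 difference of the 14 probes was −0.28 between PR and CD and −0.33 between FA and CD, against −0.02 and −0.01 over all 39429 probes. With the normexp background correction both were −0.16, and for the 11 probes measured on every array they were −0.24 and −0.29 on the deposited scale. Between FA and PR the median was 0.00, against 0.02. Of the 14 probes, 12 had a negative fitted difference from CD in PR and 12 in FA. In whole brain RNA, fewer ependymal cells and less RNA per cell cannot be told apart. Both differences were taken against the same 4 CD brains, so their likeness is not a result, and the values are given side by side.

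Of the 14 probes, 11 were well above background on all 12 arrays, and these read 9 of the 10 genes. Over the whole array 23753 probes (60.2%) reached this. Of the remaining 3 probes, 1 for Spag16 was well above background on 6 arrays, and 1 for Hydin and 1 for Spag16 on 0 arrays. Because the genes were selected from these values, the counts that follow describe them and no test is read from them. Between PR and CD, limma called 7 of the 14 probes lower (16.6% of all probes) and 0 higher (13.4%), and all 4 PR brains lay below all 4 CD brains for 10 (19%) and above them for 0 (14.2%). Tukey's test called 3 of the 14 (8354 of all 39429 probes). Of the 11 measured probes, 5 were called lower (14.3% of all measured probes), and 8 lay lower without overlap (16.1%). By Tukey's test, 2 of the 11 were called (4975 of all 23753 measured probes). Between FA and CD, 7 were called lower (18%) and 0 higher (16.4%), and the groups did not overlap for 6 lower (19.7%) and 0 higher (17.1%). Tukey's test called 5 of the 14 (10037 of all 39429 probes). Of the 11, 6 were called lower (17.1%), and 5 lay lower without overlap (17.5%). By Tukey's test, 4 of the 11 were called (6493 of all 23753 measured probes). Between FA and PR, limma called 0 lower (0.386% of all probes) and 0 higher (0.228%). At an unadjusted p under 0.05 there was 1 of the 14 (5572 of all 39429 probes), and Tukey's test called 0 (8 of all probes).

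Foxj1, the regulator, read 10.26, 10.15, 10.25 and 10.25 in CD replicates 1 to 4 on the normalized log2 scale, 10.09, 10.07, 10.02 and 10.03 in PR, and 10.08, 9.82, 10.30 and 10.02 in FA. All PR brains were below all CD brains, with group means of 10.23 ± 0.05 (SD, n = 4) in CD and 10.05 ± 0.04 in PR, a difference of −0.18. In FA the mean was 10.05 ± 0.20 and the groups overlapped, because FA replicate 3 was above every CD brain and FA replicate 2 was the lowest of the 12.

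Tekt1 encodes a tektin, a filament protein inside the outer microtubules. Its probes differed by −0.33 and −0.24 between PR and CD, and by −0.37 and −0.29 between FA and CD. The probe A_55_P2132024 read 10.50, 10.36, 10.41 and 10.41 in CD, 10.04, 10.20, 10.13 and 9.99 in PR, and 10.14, 9.85, 10.28 and 9.95 in FA, with every PR and FA brain below every CD brain. With normexp its differences were −0.22 and −0.27. For the other probe, A_55_P2111990, the PR brains (9.82 to 9.98) lay below the CD brains (10.01 to 10.31), and FA replicate 3, at 10.03, overlapped with them. Both probes lie side by side on chromosome 11 of mm9, from 72158231 to 72158290 and from 72158314 to 72158373.

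Rsph1 encodes a protein of the radial spoke head, and its 2 probes did not give the same picture. A_55_P2044684 read 9.85, 9.80, 9.76 and 9.55 in CD, 9.42, 9.42, 9.34 and 9.30 in PR, and 9.49, 9.20, 9.49 and 9.32 in FA, so that both groups were below CD without overlap, each by a difference of −0.37. A_51_P373901 was 6.62 ± 0.10 in CD, 6.51 ± 0.07 in PR and 6.62 ± 0.18 in FA (SD, n = 4), with overlap throughout. Its differences of −0.11 and −0.01 were −0.02 and 0.00 with scaling to the 75th percentile, and −0.05 and −0.04 with normexp. The former lies nearer the 3′ end of this gene (31391969 to 31392028 on the minus strand of chromosome 17, mm9), and the latter between 31410354 and 31410515.

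Hydin, Spag6 and Spag16 belong to the central pair apparatus. Hydin had the most negative differences from CD among the 11 probes measured on every array, −0.65 in PR and −0.63 in FA, which is 63.6% and 64.5% of the CD level. With normexp these differences were smaller, −0.47 and −0.46. The probe A_51_P326043 read 7.90, 8.04, 7.72 and 8.11 in CD, 7.26, 7.29, 7.28 and 7.34 in PR, and 7.68, 7.30, 7.08 and 7.18 in FA. No PR or FA brain reached the lowest CD brain, and the PR brains were the closest to each other (SD 0.03, against 0.17 in CD and 0.26 in FA). The other Hydin probe, A_66_P101360, was not well above background on any array and gives no fold.

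The Spag6 probe matches a transcript now named Spag6l, on chromosome 16. It differed little between the diets, at 9.32 ± 0.09 in CD, 9.24 ± 0.06 in PR and 9.38 ± 0.07 in FA (SD, n = 4). The groups overlapped in every comparison, and the differences from CD were −0.08 in PR and 0.06 in FA. For Spag16, A_55_P2007530 was well above background on 1 CD, 2 PR and 3 FA arrays. Its normalized values were 5.30, 5.04, 5.23 and 4.98 in CD, 3.96, 4.26, 4.91 and 4.15 in PR, and 4.74, 3.94, 5.22 and 4.90 in FA. The PR brains lay below the CD brains here, while more PR and FA arrays than CD arrays were above their own background. With the normexp background correction the difference of PR from CD went from −0.81 to −0.13, and that of FA from −0.44 to −0.12. The second Spag16 probe, A_55_P2098614, reads another transcript (NM_029160) and was not well above background on any array.

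Dnali1, a light intermediate chain of the inner dynein arms, read 8.37, 8.42, 8.44 and 8.47 in CD, 8.26, 8.24, 8.23 and 8.20 in PR, and 8.36, 7.98, 8.52 and 8.18 in FA. The PR brains lay below the CD brains within narrow ranges (SD 0.03 and 0.04), and the difference of means was −0.19. In FA the difference was −0.17 with an SD of 0.24, and FA replicate 3 was the highest of the 12 brains. With normexp the differences were −0.10 and −0.05.

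Ccdc153, a coiled-coil gene of ciliated cells, read 10.71, 10.69, 10.73 and 10.77 in CD, 10.24, 10.35, 10.32 and 10.20 in PR, and 10.50, 9.88, 10.55 and 10.18 in FA. Both groups were below CD without overlap, each by −0.45 (73.4% and 73.3% of CD), with an SD of 0.04 in CD, 0.07 in PR and 0.31 in FA. Tmem212, a membrane protein gene, read 9.25, 9.23, 9.34 and 9.10 in CD, 8.80, 8.95, 8.95 and 8.77 in PR, and 8.88, 8.47, 9.01 and 8.87 in FA. It too had no overlap with CD, with differences of −0.36 and −0.42.

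Stoml3, a stomatin-like membrane protein, stood apart from the other genes. It read 6.63, 6.54, 6.40 and 6.65 in CD, 7.03, 6.24, 8.47 and 6.51 in PR, and 6.07, 6.99, 7.27 and 5.69 in FA. The SD was 0.11 in CD, 0.99 in PR and 0.74 in FA, and the PR mean of 7.06 rests on PR replicate 3. The groups overlapped in each comparison, with differences of 0.51 between PR and CD (0.29 with normexp) and −0.05 between FA and CD.

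**Figure D1:**
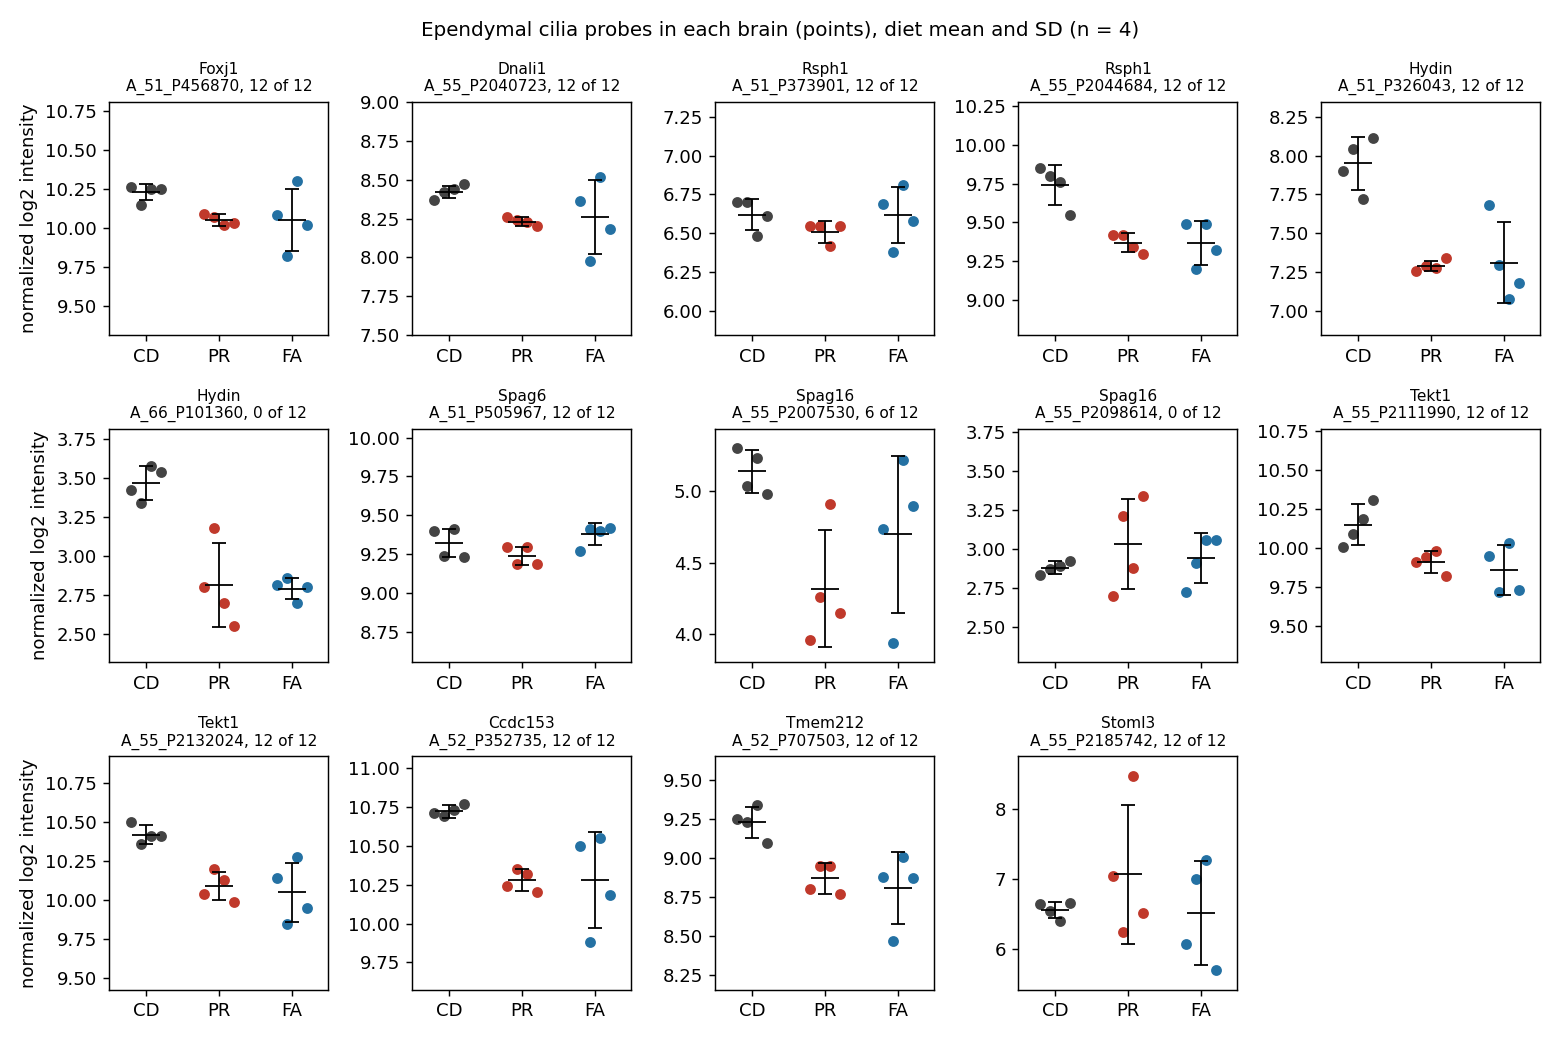
Normalized log2 intensity (vertical axis) of each of the 14 probes in the CD, PR and FA brains, 1 point per brain, with the mean and SD of the 4 brains of a diet. Above each panel stands the probe and on how many of the 12 arrays it was well above background. Hydin A_51_P326043 lies lower in PR and FA without overlap (−0.65 and −0.63, with normexp −0.47 and −0.46), while Spag6 overlaps (−0.08 and 0.06).

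Of the 11 probes measured on all arrays, those with the most negative differences from CD in PR were Hydin, Ccdc153, Rsph1 A_55_P2044684, Tmem212 and Tekt1 A_55_P2132024, at −0.65, −0.45, −0.37, −0.36 and −0.33. In FA their values in this order were −0.63, −0.45, −0.37, −0.42 and −0.37. The only positive difference in PR was that of Stoml3, 0.51, the second in size. Apart from Hydin, these probes differ from each other by less than the spread between the FA brains. The signs of these 5 held with every scaling tried.

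How the brains of the same diet differed among themselves was described by taking each value as a deviation from its diet mean. Over the 12 arrays, the 53 pairs of probes of different genes among the 11 measured probes had a median correlation of 0.32 (−0.80 to 0.95), and 23 pairs (43.4%) were above 0.5, against a median of 0.00 and 10.7% over all pairs of probes measured on all arrays. The median was 0.18 without FA replicate 4, 0.50 without both FA replicate 3 and PR replicate 3, the brains farthest from their diet means, and 0.59 without Stoml3. The last 2 of these alternatives were chosen after seeing the data. PR replicate 3 was that far through Stoml3, with a mean deviation of 0.14, and 0.01 without this gene. Without FA replicate 2 alone the median was 0.33, and FA replicates 2 and 3 were not left out together for it. The deviations of genes are not independent replicates, and no p is given for them.

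Pairs of these probes differed in how closely they ran. Ccdc153 and Dnali1 were the closest pair (r = 0.95, rho = 0.80, n = 12 arrays), followed closely by Foxj1 and Dnali1 (r = 0.92, rho = 0.69) and by Tekt1 A_55_P2132024 and Ccdc153 (r = 0.90, rho = 0.92). Foxj1 and Tmem212 had r = 0.75 but rho = 0.31, and Tekt1 A_55_P2111990 had r = 0.44 with Tmem212 and 0.13 and 0.33 with the Rsph1 probes. Different probes of the same gene reached 0.65 for Tekt1 and 0.68 for Rsph1. Hydin and Spag6 ran against each other (r = −0.80, rho = −0.81), and the median correlation with the probes of other members was −0.08 for Hydin, −0.13 for Spag6 and 0.05 for Stoml3.

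The FA brains spread the most. The mean deviation of the 11 probes was 0.20 in FA replicate 3 and 0.06 in FA replicate 1, and −0.14 and −0.12 in FA replicates 2 and 4. In FA replicate 3, 10 of the 11 probes were above the diet mean, and in FA replicates 2 and 4, 2 each. PR replicate 3 had a mean deviation of 0.14, which was 0.01 without Stoml3. Without Stoml3, FA replicate 2 was at −0.20 and FA replicate 3 at 0.15, and all CD and PR brains lay between −0.05 and 0.03.

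**Figure D2:**
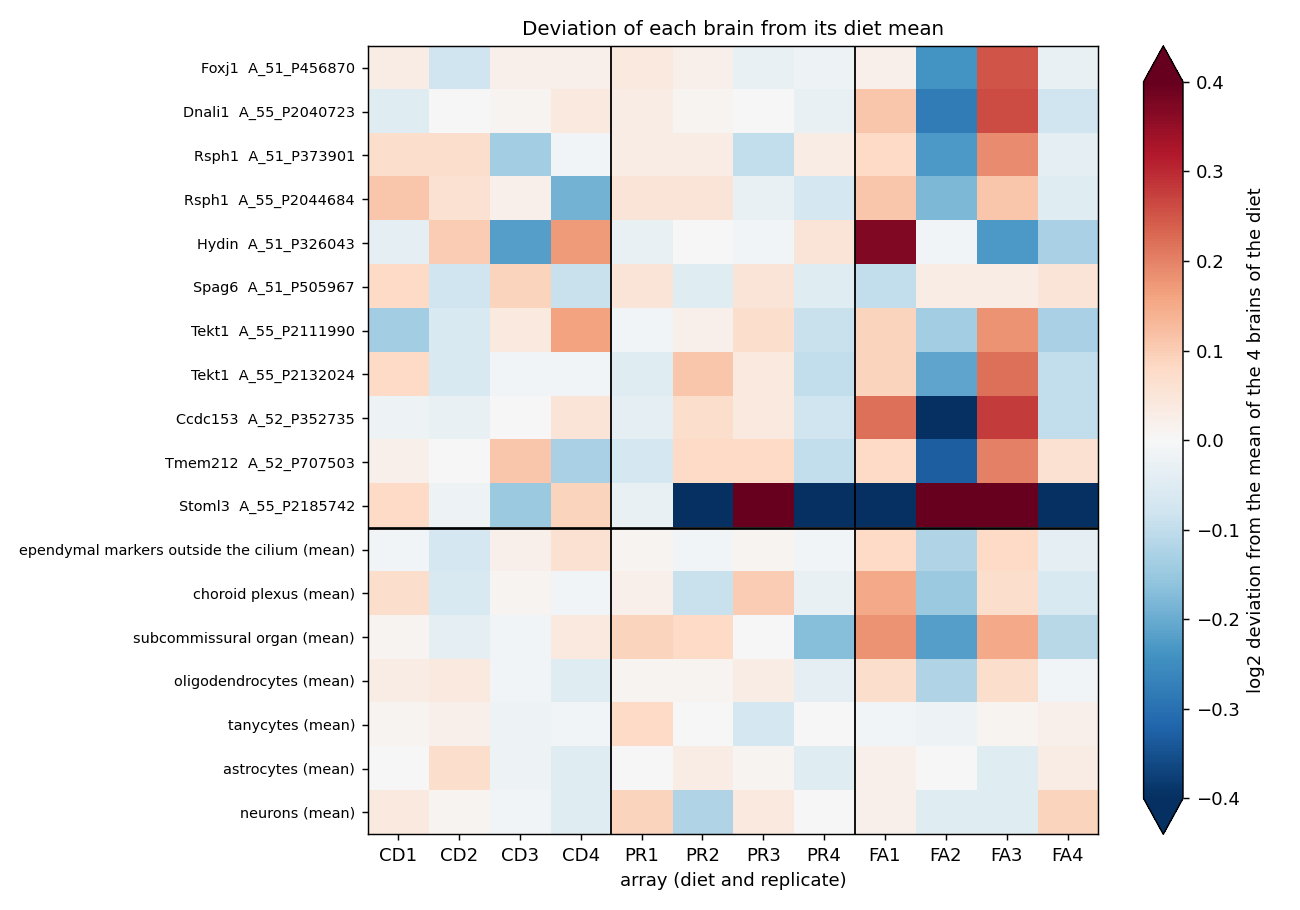
Deviation of each brain from the mean of its diet on the log2 scale (color), for the 11 cilia probes measured on all arrays (above the line) and the mean over 7 cell type marker lists (below it). Columns are the 12 arrays by diet and replicate. FA replicates 2 and 3 differ in opposite directions for most cilia probes, with mean deviations of −0.14 and 0.20.

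Among 16192 genes outside the list, those whose deviations followed the mean deviation of the members most closely over the 12 arrays were Enho (r = 0.92), Gm1673, Gm5745, Klk6 and Gm7634 (each 0.91), and AI413782, Dgcr6, Gm10134, G6pc3 and 1110054M08Rik (each 0.90). Without FA replicate 3 and PR replicate 3 these correlations were 0.79 to 0.90. None of the 10 was among the 10 highest when Stoml3 was left out of the mean, an alternative chosen after seeing the data. The genes closest to the other members were then Trpv4 (r = 0.99, rho = 0.94), Ucn (0.97, 0.87), Slc14a2 (0.96, 0.89), Dlk1 (0.95, 0.79) and Ghrh (0.94, 0.81), followed by Sncg, Lgals3bp, Oxt, Hmx3 and Cartpt (0.92 to 0.94). Without FA replicates 2 and 3, the correlation of Trpv4 was 0.98, that of Ucn 0.87, that of Oxt 0.69 and that of Cartpt 0.59.

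Several of these genes, among them the neuropeptide genes Ucn, Ghrh, Oxt and Cartpt, separated the same FA brains. Oxt read 13.67, 11.68, 13.86 and 13.16 in FA replicates 1 to 4, and Ucn 7.82, 5.29, 8.23 and 7.11. In CD, Oxt was 13.81, 13.66, 13.83 and 14.03, and in PR 13.45, 13.45, 13.12 and 13.24. Trpv4, a cation channel gene that ependymal cells also express, read 10.31, 9.99, 10.34 and 10.13 in FA. How much brain tissue of each region went into each sample is not recorded, and its part in the deviations of the members was not tested.

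Markers of other cells were read from fixed lists, with calls by limma at an adjusted p under 0.05 over all probes. The 6 neuron, 12 astrocyte and 10 oligodendrocyte probes were measured on every array. Of 14 probes for ependymal genes outside the cilium, all measured on every array, 2 were called lower and 2 higher in PR than in CD, and 4 lower and 0 higher in FA. The median difference of this list was 0.03 in PR and 0.06 in FA, above 0 although the only calls in FA were lower. Mia was lower in PR (−0.28, adjusted p = 0.0357), while Trpv4 (0.30, adjusted p = 0.00781) and Gja1 (0.30, adjusted p = 0.0346) were higher. The other call in PR was 1 of 2 Cdh2 probes, lower (−0.14, adjusted p = 0.0471), and the second Trpv4 probe was not called (0.15, adjusted p = 0.163). The calls in FA were Mia (−0.40, adjusted p = 0.00567), Vim (−0.19, adjusted p = 0.00961) and both Cdh2 probes (−0.19 each, adjusted p = 0.0104 and 0.0419). Cdh2 and Vim were named after their values were seen. With scaling to the 75th percentile, 5 were lower and 2 higher in PR, and 5 and 0 in FA. The summed intensity of the list was 119436, 114309, 115674 and 115319 in CD, 108028, 115506, 114459 and 111615 in PR, and 115848, 106640, 112206 and 110248 in FA. Its brightest probe, that of S100b, was 15.79 ± 0.07 in CD, 15.73 ± 0.08 in PR and 15.75 ± 0.05 in FA (SD, n = 4). How much of the signal of these probes comes from ependymal cells and how much from other brain cells was not tested. The list therefore gives no measure of ependymal content. The mean deviation of this list correlated with that of the cilia genes, Stoml3 included (r = 0.70, rho = 0.80, n = 12 arrays, and 0.72 without FA replicate 3 and PR replicate 3). FA replicate 2, the lowest brain of this list (−0.12), was kept in both.

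Of 21 choroid plexus probes, 3 were lower in PR than in CD and 4 in FA, with 0 higher. In PR this was 1 lower and 1 higher with scaling to the 75th percentile and 2 and 2 with normexp, and in FA 3 and 1 with normexp. The sums were 154349, 148950, 156313 and 149880 in CD, 164657, 153284, 165507 and 154879 in PR, and 158982, 136726, 152109 and 142477 in FA. Ttr, the brightest probe, was 16.18 ± 0.06 in CD, 16.21 ± 0.10 in PR and 16.06 ± 0.09 in FA (adjusted p = 0.764 and 0.166 against CD), and 15.94 in FA replicate 2, the lowest of the 12 brains. The deviations of this list followed those of the cilia genes (r = 0.77, rho = 0.87, and 0.80 without FA replicate 3 and PR replicate 3). FA replicate 2, the lowest brain of the choroid plexus list (−0.15), was again kept in. Of 4 probes for the subcommissural organ, 0 were called in PR and 1, not measured on all arrays, was higher in FA (r = 0.73, rho = 0.74), with Creb3l1 the brightest probe, at 9.33 ± 0.10, 9.28 ± 0.15 and 9.09 ± 0.23 in CD, PR and FA. Their sums were 833, 881, 825 and 923 in CD, 973, 850, 826 and 751 in PR, and 864, 718, 942 and 689 in FA. The part of either tissue in the values of the cilia genes was not tested.

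Tanycyte probes were lower in 5 and higher in 1 of 14 in PR and lower in 2 in FA (3, 1 and 0 on the 9 measured on all arrays), and their deviations did not run with those of the cilia genes (r = −0.19, rho = −0.03). Of 12 astrocyte probes, 2 were lower and 2 higher in PR, and 3 and 2 in FA. Of 6 neuron probes, these counts were 1 and 1 in PR and 0 and 1 in FA, of 10 oligodendrocyte probes 1 and 4, and 1 and 2, and of 8 microglia probes 2 and 2 in each. Endothelial probes gave 0 lower and 2 higher of 6 in PR and 2 and 2 in FA, and meningeal probes 0 and 1 of 6 in PR and 1 and 0 in FA. Blood probes gave 0 of 4 in either comparison, and testis probes, which include genes of the sperm flagellum, 1 higher of 6 in PR and 0 in FA. The sperm tail gene Odf1 was well above background on 0 arrays. Oligodendrocyte deviations also ran with the cilia genes (r = 0.73, rho = 0.75), with sums of 282436, 254552, 265085 and 262227 in CD, 263827, 296019, 294380 and 273364 in PR, and 300604, 277406, 300580 and 284105 in FA. Their part in the values of the cilia genes was not tested. Several of these counts moved with the scaling. With the 75th percentile, lower and higher calls in PR were 2 and 0 for tanycytes, 4 and 2 for astrocytes and for microglia, 2 and 0 for neurons, 2 and 1 for oligodendrocytes, and 2 and 2 for testis probes.

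Of 9 pituitary probes, 2 were called lower and 0 higher than CD in PR and in FA. Those were Gh and Prl, each well above background on 4 CD arrays, 0 PR arrays and, in FA, on replicate 4 alone. The sums of the list were 17679, 23104, 19640 and 22458 in CD, 18933, 13919, 15033 and 25283 in PR, and 18834, 16189, 18710 and 18698 in FA. They are dominated by the Pou1f1 probe A_55_P2017066 (14.17 ± 0.20 in CD, 14.02 ± 0.40 in PR and 14.03 ± 0.08 in FA), while the other Pou1f1 probe was well above background on 0 arrays. FA replicate 4, in which both were measured, had a mean deviation of the cilia genes of −0.12. The part of pituitary tissue in the values of the cilia genes was not tested.

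Genes of motile and other cilia outside the members were taken from 11 lists, with 163 genes on 237 probes. Between PR and CD, 39 of these probes (16.5%) were called lower and 27 (11.4%) higher, and between FA and CD 47 (19.8%) and 36 (15.2%). Of the 237 probes, 166 were well above background on all arrays. In PR, 31 of these were lower (18.7%, against 14.3% of all measured probes) and 22 higher (13.3%, against 16.5%). In FA, 38 were lower (22.9%, against 17.1%) and 27 higher (16.3%, against 19.9%). Calls on other probes can lie at background and give no fold. The shares of the 237 probes are near those of all probes, and the median differences were −0.04 and −0.01, against −0.02 and −0.01. On the 166, the lower calls lay above and the higher calls below the shares of all measured probes, which was not tested. Without FA replicate 3, 23 probes were called higher in FA in place of 36. Between FA and PR, limma called 0 lower and 0 higher. At an unadjusted p under 0.05 there were 37 of the 237 (5572 of all 39429 probes), and Tukey's test called 0 (8 of all probes).

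Of 23 probes for tektins and other microtubule inner proteins, 8 were called lower and 1 higher in PR, and 7 and 1 in FA (the same counts on the 22 measured on all arrays), with medians of −0.18 and −0.10. Of 25 inner dynein arm probes, 6 were called lower and 1 higher in PR, and 8 and 3 in FA. Only 10 of these were measured on all arrays, with 4 and 0 in PR and 5 and 1 in FA, and 2 of the lower calls in each group were on probes well above background on 0 arrays. Of 17 probes for the outer arms and their docking, 3 were called lower and 1 higher in PR, and 6 and 1 in FA, against 2 and 1 and 5 and 0 on the 10 measured on all arrays. The higher call in FA and 1 lower call in each group were on probes well above background on 0 arrays. Of 35 intraflagellar transport probes, 1 was called lower and 6 higher in PR, and 3 and 10 in FA (1 and 5 and 3 and 9 on the 29 measured on all arrays), with medians of 0.03 and 0.11. The signs of the medians of these 4 lists were the same with every scaling tried, but their sizes were not. In PR, the microtubule inner proteins went from −0.18 to −0.06 with normexp, and the inner arms from −0.10 to −0.30 with scaling to the 75th percentile. In FA, the inner arms went from −0.11 to −0.35 with that scaling, and the outer arms from −0.13 to −0.02 with normexp. On the 10 inner arm probes measured on all arrays, the medians were −0.20 in PR and −0.38 in FA. For the 10 outer arm probes measured on all arrays they were −0.11 and −0.20. Whether the lists differ from each other was not tested. Of the 44 calls that the rule for named genes picked, not all are named in the following. In 40 of the 44, all 4 brains of a group lay on 1 side of the 4 CD brains. The exceptions were Odad4, Cfap54 and Bbs5 in FA and Ift22 in PR. Because the rule took only called probes, those with the largest changes, this selection itself favors groups without overlap. The count therefore describes these calls, and no test is read from it.

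Among tektins and microtubule inner proteins, the Spaca9 probe A_55_P1979998 fell in PR and FA (−0.40 and −0.37, adjusted p = 0.00559 and 0.00628). The other Spaca9 probe was not called (−0.86 and −0.75, adjusted p = 0.119 and 0.164). For Cfap126, 1 probe rose in FA (0.38, adjusted p = 0.0314, with normexp 0.25) and was not called in PR (0.13, adjusted p = 0.442), while the other fell in both (−0.24 in PR and −0.30 in FA, adjusted p = 0.0164 and 0.0053). The former call was lost without CD replicate 1 (0.34), CD replicate 2 (0.38), FA replicate 2 (0.28) or FA replicate 3 (0.34).

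Of the inner arm heavy chains, Dnah10 fell in both groups (−0.67 in PR, adjusted p = 0.00131, and −0.96 in FA, SE 0.11, adjusted p = 0.000149, with normexp −0.26 and −0.37). The Dnah7b probe A_55_P2100968 fell in PR (−0.47, adjusted p = 0.0213), a call lost without PR replicate 1 (−0.41) or PR replicate 4 (−0.46), and in FA (−0.42, adjusted p = 0.0305), lost without CD replicate 1 or any of FA replicates 1 to 3. Both calls of this probe were lost with the 2 groups fitted alone and with Tukey's test, and the FA call with the replicate number as a block. The Dnah7b probe A_51_P227662, well above background on 8 arrays, was not called in PR (−0.05, adjusted p = 0.767) and fell in FA (−0.42, adjusted p = 0.0106). The remaining probes of Dnah7b, and the other probes of Dnah10 and Dnah8, were well above background on 0 arrays. Dnah6 fell in both (−0.43 and −0.50, adjusted p = 0.00983 and 0.00385). Of the outer arms, Dnah11 fell in PR and FA (−0.30 and −0.46, adjusted p = 0.00851 and 0.000642). Dnah17 fell in both as well (−0.26 and −0.62, adjusted p = 0.0224 and 0.000171, with normexp −0.16 and −0.26), in PR not with scaling to the 75th percentile, with trend and robust variance, or without CD replicate 2 or 3 or PR replicate 4. The rise of Dnah8 in PR (0.40, adjusted p = 0.0454) was lost when any of CD replicates 1 to 3, PR replicates 1 to 4 or FA replicates 3 and 4 was left out, with values of 0.37 to 0.41. This call was also lost with quantile normalization (0.37) and with Tukey's test. The value was 0.25 with normexp, and Dnah8 was not called in FA (0.29, adjusted p = 0.118). The fall of the docking gene Odad4 in FA (−0.68, adjusted p = 0.044) was lost without any 1 of CD replicates 1, 3 and 4, PR replicates 2 and 3, and FA replicates 1, 3 and 4, with values of −0.70 to −0.50. The Odad4 call was also lost with the replicate number as a block, with the 2 groups fitted alone and with Tukey's test. Its value was −0.37 with normexp, and in PR the probe was not called (0.04, adjusted p = 0.91). The other Odad4 probe was not called in FA (0.11).

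Of 12 probes for dynein arm assembly factors, 2 were called lower and 2 higher in PR, and 3 and 1 in FA (1 and 2 with normexp). In each group, 1 of the lower calls was on a probe well above background on 0 arrays, which leaves 1 and 2 in PR and 2 and 1 in FA on the 10 probes measured on all arrays. Dnaaf3 fell in both (−0.59 and −0.69, adjusted p = 0.0117 and 0.00438), while Spag1 rose in both (0.58 and 0.65, adjusted p = 0.000571 and 0.000259). Cfap300 rose in PR (0.99, adjusted p = 0.013) and was not called in FA (0.07, adjusted p = 0.853). With Tukey's test, its PR call was lost.

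Of 13 radial spoke probes, 3 were called lower and 1 higher in PR, and 1 and 1 in FA (3 and 1 with normexp), and on the 10 measured on all arrays 2 and 1, and 1 and 1. Rsph3a, a spoke stalk gene, rose in both groups on 1 of its 2 probes (0.42 and 0.41, adjusted p = 0.000254 and 0.000246), and the other was not called (0.17 and 0.15, adjusted p = 0.118 and 0.147). Nme5 fell in both on 1 of its 2 probes (−0.21 and −0.24, adjusted p = 0.00271 and 0.00103). Rsph14 fell in PR (−0.62, adjusted p = 0.00835, measured above background in 4 PR brains but 2 CD brains) and was not called in FA (−0.37, adjusted p = 0.0693). The PR call was lost with scaling to the 75th percentile (−0.31), and the value was −0.16 with normexp.

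Of 9 central pair probes, 1 was called lower and 2 higher in PR, and 2 and 1 in FA, and on the 4 measured on all arrays 0 and 2, and 0 and 1. Cfap54, well above background on 2 CD arrays, fell in PR (−0.84, adjusted p = 0.00646) and in FA (−0.59, adjusted p = 0.0293), with normexp −0.22 and −0.18. The FA call was lost without CD replicate 1 (−0.59), CD replicate 2 (−0.53), CD replicate 3 (−0.58), FA replicate 1 (−0.57) or FA replicate 3 (−0.45). The other Cfap54 probe, well above background on 9 arrays, was not called in PR (−0.44, adjusted p = 0.25) and fell in FA (−1.0, adjusted p = 0.0167). Spef2 rose in PR (0.58, adjusted p = 0.00883) and was not called in FA (0.27, adjusted p = 0.147). Mycbpap rose by 0.44 in each (adjusted p = 0.0224 in PR and 0.0194 in FA, with normexp 0.24 and 0.23), in FA not without CD replicate 2 (0.36), FA replicate 1 (0.36) or FA replicate 3 (0.39), and in PR not without CD replicate 1 or 2 or PR replicate 1 or 2.

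Of 17 probes for nexin link and ruler proteins, 2 were called lower and 2 higher in PR, and 3 and 3 in FA, all of them on the 10 measured on all arrays. Drc3 rose in both (0.68 and 0.94, adjusted p = 0.000459 and 8.45e-05, with normexp 0.37 and 0.53). Iqcg fell in both (−0.30 and −0.45, adjusted p = 0.0213 and 0.00227, with normexp −0.16 and −0.21). The PR call of Iqcg was lost with normexp, with the 2 groups fitted alone, and without PR replicate 4 (−0.28).

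Of 21 probes for regulators of ciliogenesis, 4 were called lower and 5 higher in each group (4 and 2 in PR and 3 and 3 in FA with normexp), and on the 13 measured on all arrays 3 and 4 in each. Rfx3, a transcription factor of cilia genes, fell on the probe A_55_P2138841 in PR (−0.79, SE 0.17, adjusted p = 0.00518) and FA (−0.68, adjusted p = 0.00979), and all 8 of these brains lay below the CD brains. With normexp these values were −0.29 and −0.26. A further Rfx3 probe fell as well (−0.62 and −0.47, adjusted p = 0.00843 and 0.0253), and its other probe was not called (0.18 and 0.11). The probe for Mcidas, named Gm6320 in the files and with a run of 10 copies of a 2-base repeat, fell by 0.67 and 0.71 (adjusted p = 0.000195 and 0.000133), and whether it reads Mcidas RNA was not tested. Of 53 probes for other genes of multiciliated cells, 9 were called lower and 4 higher in PR, and 9 and 7 in FA, and on the 36 measured on all arrays 8 and 2, and 8 and 3. Fam183b fell in both on 1 of its 2 probes (−0.59 and −0.58, adjusted p = 0.00102 and 0.00087) and Wdr38 rose in PR (0.97, adjusted p = 0.0114, with normexp 0.45). In FA this probe was not called (0.63, adjusted p = 0.0621), and the other Wdr38 probe was (0.51, adjusted p = 0.0372). The Nek5 probe A_55_P2056085 was at least 1.27-fold higher in FA (adjusted p = 0.0365), being well above background on 0 CD arrays, and this call was lost with normexp (0.12) and without CD replicate 1 or 2 or any 1 FA array, with fitted values of 0.47 to 0.59. The other Nek5 probe, A_51_P347529, measured on all arrays, was not called (0.08, adjusted p = 0.611).

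Of the transport genes, Kif17, a kinesin motor, rose in FA (0.50, adjusted p = 0.00108, with normexp 0.28) and was not called in PR (0.22, adjusted p = 0.0626). Ttc30b rose in both (0.30 and 0.37, adjusted p = 0.0112 and 0.00341), as did Ift22 (0.28 and 0.37, adjusted p = 0.0372 and 0.00911). The PR call of Ift22 was lost when any of CD replicates 1 to 3, PR replicates 1, 3 and 4, or FA replicates 1 and 4 was left out (0.20 to 0.30). This call was lost as well with the replicate number as a block, with the 2 groups fitted alone and with Tukey's test. Of 12 probes for the BBSome, a complex that carries membrane proteins in cilia, all measured on every array, 0 were called lower and 2 higher in PR, and 1 and 3 in FA. Bbs2 rose from 8.43 ± 0.10 in CD to 9.19 ± 0.05 in PR and 9.43 ± 0.10 in FA (SD, n = 4, differences of 0.75 and 0.99, adjusted p = 7.81e-05 and 2.69e-05). Bbs5 rose on 1 of its 2 probes (0.43 and 0.35, adjusted p = 0.0125 and 0.028), in FA not without CD replicates 1, 2 or 3 or FA replicates 1 or 3 (0.25 to 0.35).

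**Figure D3:**
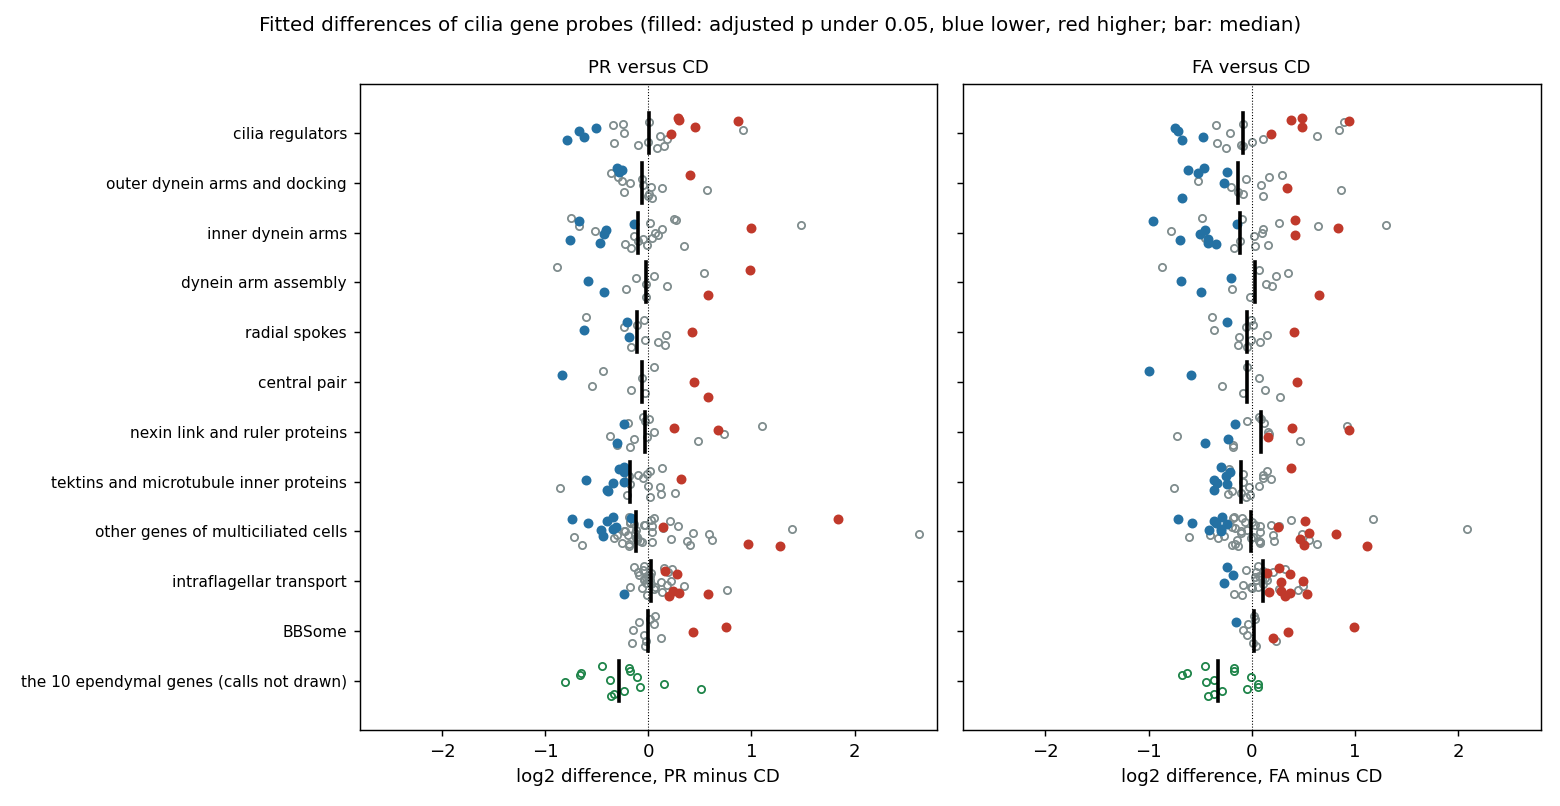
Fitted log2 difference from CD (horizontal axis) of every probe of 11 cilia gene lists in PR (left) and FA (right). Filled points were called at an adjusted p under 0.05, blue lower and red higher, black bars are list medians, and the green open circles are the 14 probes of the ependymal genes, drawn without their calls. Microtubule inner proteins have 8 lower and 1 higher call in PR (34.8% and 4.35%), intraflagellar transport 1 lower and 6 higher (2.86% and 17.1%). Over all probes the shares are 16.6% and 13.4%, and whether the lists differ was not tested.

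The promoters of the members were read for the core letters of the site that RFX factors bind, GTTGCC or GGCAAC on the other strand. The sequences are 300 bases of GRCm38.p6, 250 before the RefSeq transcription start site and 50 from it, and 8 of the 10 genes have an entry in the table used (Foxj1 and Rsph1 do not), 9 in all because Tekt1 has 2. A match was found in 5 of the 9 entries, those of Tekt1 (1 of 2), Ccdc153, Spag6l, Hydin and Spag16, while 12.5% of 32851 mouse promoters hold one. The second Tekt1 entry, at chr11:72361247-72361546, holds none. It starts at −35 and −15 from the start site in Tekt1, at −152 in Ccdc153, at 34 in Spag6l, at −13 in Hydin, and at −111 and −103 in Spag16. The forkhead letters GTAAACA were found for 1 gene, Stoml3, and in 3.65% of all promoters. A match is a description of the sequence, not a site shown to be bound. In the sequences below, written in the direction of transcription, capitals mark the match.

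Tekt1: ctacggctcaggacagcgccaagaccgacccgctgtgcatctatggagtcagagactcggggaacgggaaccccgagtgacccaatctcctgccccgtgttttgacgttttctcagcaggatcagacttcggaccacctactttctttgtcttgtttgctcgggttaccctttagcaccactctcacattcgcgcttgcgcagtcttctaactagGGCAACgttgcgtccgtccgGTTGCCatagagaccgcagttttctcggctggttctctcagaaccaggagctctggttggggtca

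Ccdc153: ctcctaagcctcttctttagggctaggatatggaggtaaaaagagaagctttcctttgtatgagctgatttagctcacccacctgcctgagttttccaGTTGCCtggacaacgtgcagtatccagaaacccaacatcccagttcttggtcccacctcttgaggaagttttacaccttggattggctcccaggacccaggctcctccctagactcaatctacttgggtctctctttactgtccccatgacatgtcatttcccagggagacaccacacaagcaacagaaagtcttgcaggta

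Spag6l: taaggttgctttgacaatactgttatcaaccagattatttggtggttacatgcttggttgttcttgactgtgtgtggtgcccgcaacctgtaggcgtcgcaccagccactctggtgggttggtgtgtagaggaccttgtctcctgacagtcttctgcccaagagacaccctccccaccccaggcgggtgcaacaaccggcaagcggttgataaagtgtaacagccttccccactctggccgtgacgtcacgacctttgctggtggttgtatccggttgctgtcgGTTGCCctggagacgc

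Hydin: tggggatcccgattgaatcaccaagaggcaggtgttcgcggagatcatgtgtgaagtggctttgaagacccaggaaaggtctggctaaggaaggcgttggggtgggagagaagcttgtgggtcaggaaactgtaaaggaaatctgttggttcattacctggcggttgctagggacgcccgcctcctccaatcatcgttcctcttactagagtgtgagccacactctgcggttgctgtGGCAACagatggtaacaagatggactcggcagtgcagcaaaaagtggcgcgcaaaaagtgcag

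Spag16: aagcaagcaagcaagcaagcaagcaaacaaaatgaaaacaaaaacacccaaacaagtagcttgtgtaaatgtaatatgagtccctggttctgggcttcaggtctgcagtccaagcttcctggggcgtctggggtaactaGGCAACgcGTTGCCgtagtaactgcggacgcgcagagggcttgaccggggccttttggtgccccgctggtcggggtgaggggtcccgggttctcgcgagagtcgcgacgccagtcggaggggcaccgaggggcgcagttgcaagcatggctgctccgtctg

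These promoters lie at chr11:72361833-72362132 (minus strand) for Tekt1, chr9:44240427-44240726 (plus strand) for Ccdc153, chr16:16829314-16829613 (minus strand) for Spag6l, chr8:110266727-110267026 (plus strand) for Hydin, and chr1:69826720-69827019 (plus strand) for Spag16. Of these genes, the measured probes of Tekt1, Ccdc153 and Hydin had lower means in PR and FA than in CD. Among these probes only Tekt1 A_55_P2111990 overlapped with CD, and only in FA. The Spag6 probe overlapped with CD in both groups. Tmem212 and Dnali1, whose promoters hold no match, had differences from CD of −0.36 and −0.19 in PR and −0.42 and −0.17 in FA. Stoml3, which has no match either, had differences of 0.51 and −0.05.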

How the data were processed

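Whole brains of 12 mice, 4 per diet, were measured on 1 one-colour Agilent array each. The authors deposited scanner values from Feature Extraction 11.0.1.1 and a table of intensity per probe, normalized between arrays with qspline on the linear scale. The log2 of that table was used for the 39429 probes that are not controls. The background flag of the software had to be set on at least 50% of a probe's spots. All 3 diets entered 1 limma fit (version 3.58.1, R 4.3.3) with moderated statistics. Its p-values were adjusted over all probes of each comparison (Benjamini-Hochberg), and an adjusted p under 0.05 was a call. The pipeline was tested on simulated data. Python 3.11.15 with pandas 2.3.3, numpy 2.4.6 and scipy 1.17.1 made the tables.

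The 10 genes, 11 lists of other cilia genes and 13 lists of cell type markers (choroid plexus, ependymal, tanycytes, subcommissural organ, astrocytes, neurons, oligodendrocytes, microglia, endothelium, meninges, pituitary, blood and testis) were chosen with earlier results of these data known. Named, apart from single genes left out of the text, were every probe of the 10 genes, the 2 called probes with the largest absolute change of each cilia list and comparison among those measured in all 4 brains of a group (with their values in both PR and FA), the 10 genes most correlated with the members, and the brightest or defining markers of the cell types. The fold of a probe at background in every brain of 1 group is a lower bound, set against the dimmest signal above background on each array. Correlations used deviations from the diet means. As alternatives, arrays were scaled to the 75th percentile, quantile normalized, or corrected with normexp (offset 50), outlier spots or dim probes were left out, the variance was modeled with trend and robust estimation, 2 groups were fitted alone, Tukey's test or stricter limits were used, and each array was left out in turn. The methylation samples were left out, because they hold no expression values.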

Additional observations from a re-analysis of the deposited data

Results flagged for a closer look

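In 3 of 42 groups of 4 brains (14 probes in 3 diets), the lowest brain lay far from the others, judged by its gap to the nearest brain over the range of the group (Dixon ratio). Chance gives about 1 in 20 such groups. Foxj1 was 10.15 in CD replicate 2, against 10.25 to 10.26 in the other CD brains. The Rsph1 probe A_51_P373901 was 6.42 in PR replicate 3, against 6.55 in each of the others. Spag6 was 9.27 in FA replicate 1, against 9.40 to 9.42. No cause was tested for any of them.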

How the results depend on the processing

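Of the 44 calls that the rule for named cilia genes picked, checked 911 times over the alternatives, 836 checks kept the call, 75 kept the direction but not the threshold, and 0 turned the direction. Tukey's test lost the most of them in 1 setting, 11 of 44. These were Dnah8, Dnah7b, Cfap300, Iqcg and Ift22 in PR, and Odad4, Cfap54, Mycbpap, Cfap126, Nek5 and Bbs5 in FA. Outside the 44, that test also lost Dnah17 and Mycbpap in PR and Dnah7b in FA. With the 2 groups fitted alone, 6 of the 44 were lost. The replicate number as a block lost 2, those of Odad4 in FA and Ift22 in PR. For the 237 probes of the cilia lists, the number called higher in PR than in CD was 27, and 17 with the normexp correction, 14 with Tukey's test and 0 at 2-fold and an adjusted p under 0.0001. The number called higher in FA was 36, and 21 with Tukey's test and 0 at the stricter limits, where the 39 and 47 called lower were 0 as well. Between FA and PR, where limma called 0 (37 at an unadjusted p under 0.05, 0 by Tukey's test), 1 was higher and 2 lower with dim probes removed, 1 and 1 with trend and robust variance, and 1 lower with scaling to the 75th percentile, with or without outlier spots. The median difference of the 14 cilia probes between PR and CD was −0.16 in place of −0.28 with normexp, and that between FA and CD −0.16 in place of −0.33. Over all probes, normexp gave 3638 lower and 4690 higher calls in PR, where the deposited values gave 6532 and 5288. The cause was not tested. Leaving out 1 array at a time gave 18 to 27 higher and 32 to 45 lower in PR, 23 to 40 and 37 to 49 in FA, and 0 to 0 and 0 to 0 between FA and PR. The medians of the 14 probes were then −0.30 to −0.25, −0.38 to −0.23 and −0.07 to 0.06, and the median correlation of the cilia probes 0.18 to 0.40. That correlation, 0.32, was 0.50 without FA replicate 3 and PR replicate 3, and 0.59 without Stoml3, both alternatives chosen after seeing the data. With the replicate number as a block (replicate block), 24 were higher and 39 lower in PR, 35 and 42 in FA, and 0 and 0 between FA and PR, and the median correlation was 0.27. Arrays with the same number correlated at −0.0629 to 0.196 over 12 pairs, 3 of them above 0.1. Of the 12 arrays, 2 correlated best with their own number in both other groups. The numbers were therefore not used to pair samples in the main fit, though these weak correlations cannot exclude a pairing. The dim probes of Hydin (A_66_P101360) and Spag16 (A_55_P2098614) turned sign between scalings, as did Rsph1 A_51_P373901 in FA, at 0.00 with scaling to the 75th percentile.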
